A study of Homo sapiens with 8 samples.

Results

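The genes described here are 33 genes reported as imprinted in humans, of 60564 genes in the deposited count table. They were chosen by name, with their symbols matched to the versioned Ensembl identifiers of the table, and all 33 were found. Gene expression was measured by RNA sequencing of polyadenylated RNA in 8 libraries of AB8/13, a human podocyte line that is conditionally immortalised and was kept at 33 °C to divide and at 37 °C for 5 days to differentiate. Podocytes are the epithelial cells that wrap the filtering capillaries of the kidney. The cells of 4 libraries, the control group, had been transfected with an shRNA that is non-targeting, and those of the other 4, the knockdown group, with an shRNA against ATOH8, a helix-loop-helix transcription factor. Both groups are of the same line and went through the same transfection and temperature shift, and how many shRNAs were used is not given in these sources. It is not stated whether the libraries of a group came from separate cultures, so the p-values rest on the spread among the libraries of each group, and that spread may be only technical.

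An imprinted gene is expressed mainly from the allele of one parent, because the copies inherited from mother and father carry different DNA methylation at a control region near the gene. Imprinted genes lie in clusters, in which a control region can act on several protein-coding genes and on long noncoding RNAs, and paternally expressed genes often favour fetal and placental growth while maternally expressed genes often restrain it. Many of them are high in the fetus and silent in most adult cells. The counts analysed here are per gene and do not separate the parental alleles, so the allele given for each gene is background and was not measured. By that background 20 genes were taken as paternally expressed, 6 as maternally expressed, and 7 as dependent on isoform or tissue or as disputed. The 33 genes lie in 14 loci on 10 chromosomes.

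The libraries held 21108695 to 27109043 counts, and the 33 genes took 0.170% to 0.176% of them in control and 0.165% to 0.170% in knockdown libraries. ATOH8 was lower in each knockdown library (51 to 71 counts) than in any control library (122 to 175 counts), at log2 -1.26 (SE 0.127, edgeR adjusted p = 1.78e-09). Of the podocyte markers, NPHS1 had 0 to 6 counts in each library and WT1 108 to 167. Between 24154 and 25081 genes had a count in the control libraries, and between 25426 and 26071 in those of the knockdown. The summed level of 12 podocyte markers ran from 895 to 927 CPM (counts scaled to the size of the library) in control and from 711 to 757 in knockdown libraries, and that of 12 mesangial and fibroblast markers from 833 to 895 and from 1078 to 1209 CPM. Summed endothelial markers (8 genes, with EMCN at 0 in each library) ran from 11.2 to 12.7 CPM in control and 17.4 to 20.5 CPM in knockdown, summed leukocyte markers (6 genes, MS4A1 at 0) from 76.4 to 86.4 and 103 to 112 CPM, and summed tubular markers (8 genes, AQP2 and UMOD at 0) from 4.38 to 6.98 and 2.20 to 2.75 CPM. A few genes carry these sums, and single markers went against them. KIRREL1 (626 CPM in control, log2 -0.36) and CD2AP (227 CPM, log2 -0.26) make up most of the podocyte sum, while SYNPO in that list rose by log2 0.53. LUM fell by 1.25 on the log2 scale within the rising mesangial and fibroblast list, CD68 (79.3 CPM in control) is nearly all of the leukocyte sum, TIE1 (1.05 to 6.77 CPM) gave most of the endothelial rise, and CUBN rose by log2 0.91 where AQP1 (5.19 to 1.14 CPM) set the tubular fall. These sums, and the number of genes detected, moved with the groups, and their part in the results below was not tested. In bulk libraries such as these, a change in the number of cells that express a gene and a change in RNA per cell cannot be told apart.

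Imprinted genes went both ways, with a few large rises and mostly small falls. Of the 33 genes, 24 had enough counts to be tested, and of these 7 rose, 8 fell and 9 did not pass the test at an adjusted p of 0.05. The 15 that passed are 62.5% of the 24, beside 51.1% of the 16884 genes tested in all, of which 25.2% rose and 25.9% fell. Among the 24, the largest rises were those of the noncoding RNAs MEG8 and MEG3, of NDN and of MEST, and the largest fall was that of PEG10. These 4 rises were the called changes of at least 2-fold, 4 of 24, beside 4.48% of all tested genes with such a change in either direction, 3.29% upward and 1.2% downward. The groups did not overlap for 14 of the 24 genes, beside 45.6% of all tested genes. The median log2 fold change of the 24 was 0.03 and that of all tested genes -0.0007, and the median size of the change was 0.21 and 0.19. Because the filter on low counts lets a gene pass through the group in which it is high, these counts describe the 24 tested genes and not the 33.

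**Figure D1:**
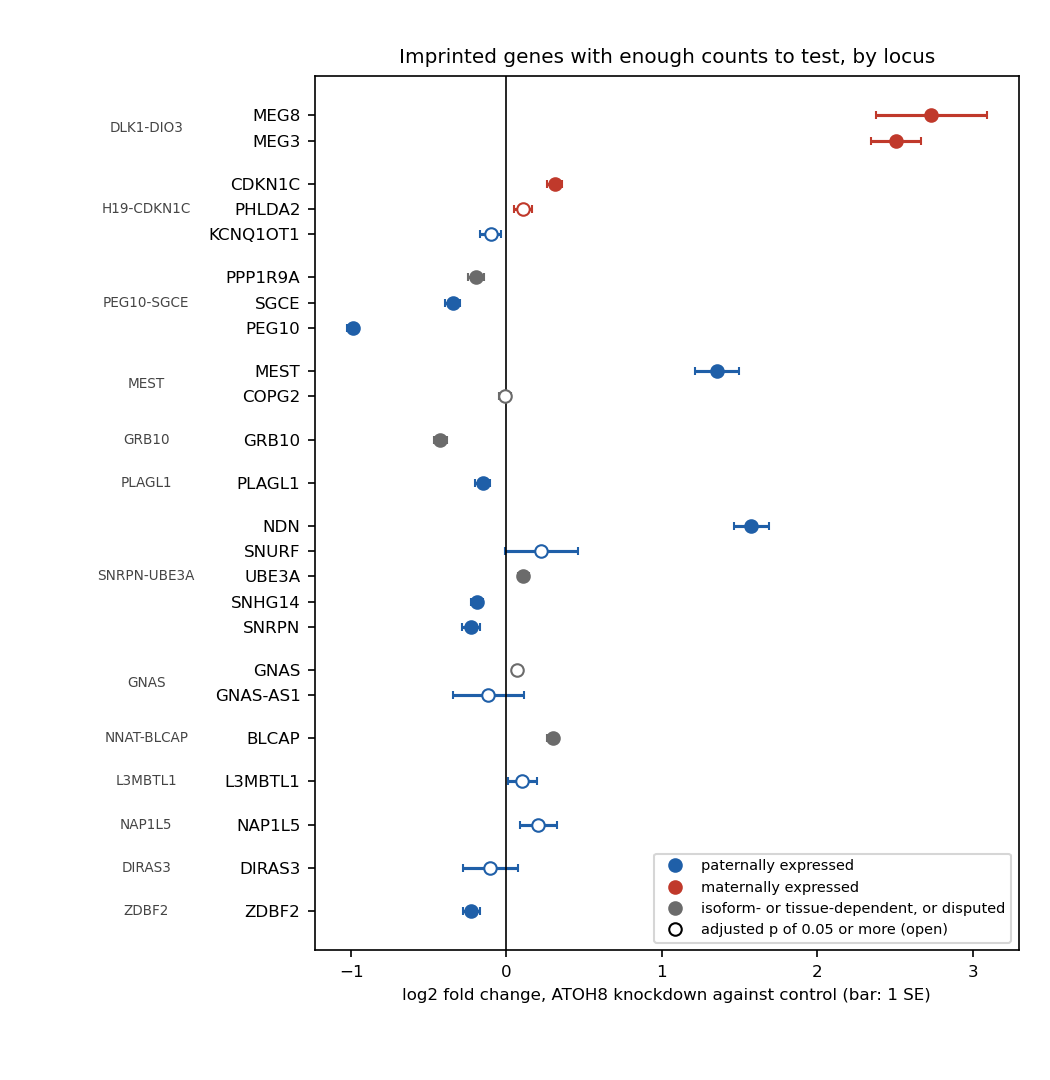
The log2 fold change of each of the 24 tested imprinted genes, grouped by locus, with 1 SE as a bar and the parental allele as colour. MEG8, MEG3, NDN and MEST lie furthest to the right, at 2.73, 2.51, 1.58 and 1.35, and PEG10 furthest to the left, at -0.99.

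By parental allele, the 4 tested maternally expressed genes all had a positive log2 fold change, from 0.11 to 2.73, and 3 of them rose. Of those 3 rises, 2 come from a single locus, so they are not independent of each other. MEG8, at 2.73, passed the filter only through the knockdown group, so its sign was favoured by the filter. With 1 CPM required in 4 libraries MEG8 was left out, and 2 of 3 were called. Of all tested genes 25.2% rose and 25.9% fell. Of the 14 tested paternally expressed genes 2 rose, 6 fell and 6 missed the threshold (median log2 fold change -0.11). Of the 6 tested genes with isoform-dependent or disputed imprinting, 2 rose, 2 fell and 2 did not pass, with values from -0.43 to 0.30. The difference between the allele classes was not tested.

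Among the 24 tested genes, the DLK1-DIO3 locus on chromosome 14 held the largest relative rises. Its maternally expressed noncoding RNAs MEG3, MEG8 and MEG9 are thought to be parts of one transcribed stretch on the maternal chromosome, which also hosts small nucleolar RNAs and microRNAs, and its paternally expressed protein-coding genes are DLK1, a Notch-like regulator of differentiation, and RTL1, a retrotransposon-derived gene needed by placental vessels. MEG3, which has been described as a growth suppressor, was at 3.34, 4.54, 4.66 and 3.07 CPM in control replicates 1 to 4 and at 24.5, 24.4, 17.6 and 21.5 CPM in knockdown replicates 1 to 4. Each knockdown library was above each control library, and knockdown replicate 3 was the lowest of its group. The log2 fold change was 2.51 (SE 0.160, edgeR adjusted p = 1.28e-06), or 5.68-fold.

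MEG8 had few reads, with 5, 6, 2 and 2 counts in control and 25, 27, 30 and 17 counts in knockdown libraries. In CPM this was 0.146 ± 0.071 for the controls against 1.03 ± 0.256 for the knockdown (SD, n = 4), or log2 2.73 (SE 0.354, edgeR adjusted p = 1.85e-07). Knockdown replicate 3 was the highest for MEG8 and the lowest for MEG3. The log2 ratio of MEG8 to MEG3 was -4.85 ± 0.72 in control and -4.45 ± 0.51 in knockdown libraries (SD, n = 4), a difference of 0.40, smaller than the SD of either group. This ratio and 4 others below were chosen after the values had been seen. They are therefore given as descriptions, and the permutation tests run on them are not used.

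MEG9 was too rare for the test, with 0, 1, 0 and 0 counts in control and 5, 3, 3 and 4 counts in knockdown libraries. Its groups did not overlap, and the ratio of the summed counts, 15 against 1, was 15.5 with a 95% counting interval of 2.38 to 651. Without a filter on low counts MEG9 was called higher (edgeR adjusted p = 0.00833). The paternally expressed genes of the locus were at or near 0, with 0 counts for DLK1 in all 8 libraries and 1 count for RTL1 in each of 2 knockdown libraries. The sum of MEG3, MEG8 and MEG9 ran from 3.14 to 4.80 CPM in control and from 18.98 to 25.8 CPM in knockdown libraries. The other 119 rows that lie between DLK1 and DIO3 together held 10 counts in control and 4 in knockdown libraries.

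**Figure D2:**
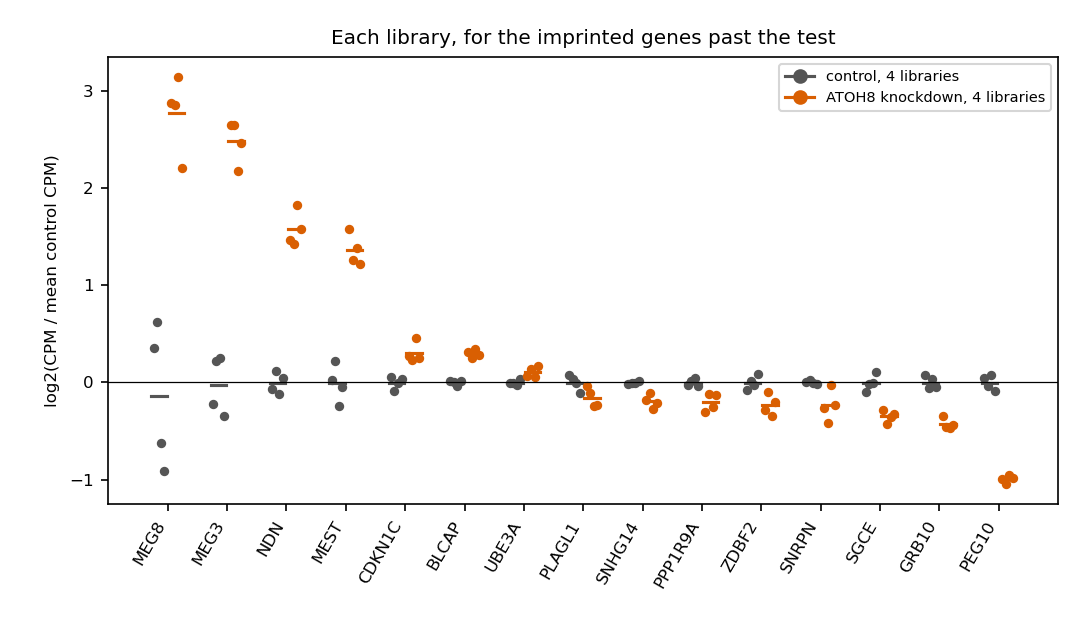
Each of the 8 libraries for the 15 imprinted genes past the test, as log2 of its CPM over the mean control CPM, with the mean of each group as a line. PLAGL1 is the gene whose groups overlap, and for the other 14 each knockdown library lies on one side of all control libraries.

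The promoter of MEG3 is shown because it is a start site of the transcripts with the largest rise, that of NDN because this gene also rose by a large factor and has 1 start in the RefSeq promoter table, and that of SNURF because SNRPN shares this start. All are from RefSeq on GRCh38.p14, read 5′ to 3′ on the strand of the gene, from 250 bases before to 50 after the start. Capitals mark TGCCGC or its reverse complement, the hexamer bound by the imprint-maintaining factor ZFP57 when it is methylated. The MEG3 promoter is chr14:100825858-100826157 on the plus strand, the NDN promoter chr15:23687256-23687555 on the minus strand, and the SNURF promoter chr15:24954737-24955036 on the plus strand.
MEG3: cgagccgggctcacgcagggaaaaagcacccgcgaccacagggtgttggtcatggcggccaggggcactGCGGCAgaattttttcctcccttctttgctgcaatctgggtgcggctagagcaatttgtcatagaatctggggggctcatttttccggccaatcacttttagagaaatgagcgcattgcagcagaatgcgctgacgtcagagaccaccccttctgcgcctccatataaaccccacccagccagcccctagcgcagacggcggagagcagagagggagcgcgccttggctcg
NDN: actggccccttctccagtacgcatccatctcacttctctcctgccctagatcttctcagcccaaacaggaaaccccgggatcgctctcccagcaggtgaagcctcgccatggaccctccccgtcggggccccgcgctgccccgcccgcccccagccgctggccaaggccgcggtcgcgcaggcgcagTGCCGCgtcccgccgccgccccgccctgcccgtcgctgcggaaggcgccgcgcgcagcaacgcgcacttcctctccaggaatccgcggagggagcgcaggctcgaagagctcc
SNURF: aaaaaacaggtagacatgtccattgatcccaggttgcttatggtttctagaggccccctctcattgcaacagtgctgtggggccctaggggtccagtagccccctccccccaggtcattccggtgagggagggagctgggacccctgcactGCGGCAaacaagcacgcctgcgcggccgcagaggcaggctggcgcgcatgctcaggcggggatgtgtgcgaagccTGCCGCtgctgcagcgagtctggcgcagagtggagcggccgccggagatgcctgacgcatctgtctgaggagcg

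The MEG3 and NDN promoters each hold the hexamer 1 time and the SNURF promoter 2 times. At least 1 promoter with the hexamer was found for 13 of the 22 imprinted genes in the table (59.1%), beside 19.5% of the 27305 genes of the whole table. Promoters of imprinted genes held a median of 18 CpG dinucleotides in 300 bases and all promoters 14. The E-box CANNTG, the word that helix-loop-helix factors bind, was found on either strand for 16 of the 22 genes (72.7%) and for 73.1% of all genes, and it was found in the NDN and SNURF promoters shown but not in that of MEG3. The core GGGGCCCC of the motif of PLAGL1 was found for 3 of the 22 (13.6%) and for 2.41% of all genes. Counted per start instead, with 49 starts of imprinted genes and 34943 in all, the shares were 40.8% and 16.7% for TGCCGC, 59.2% and 68.7% for CANNTG, and 6.12% and 1.95% for GGGGCCCC. TGCCGC and GGGGCCCC are rich in G and C, and imprinted genes with several listed starts had more windows to hold a word, so these shares are descriptions.

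The SNRPN-UBE3A locus on chromosome 15, the region lost or silenced in Prader-Willi and Angelman syndromes, went both ways within itself. NDN, which encodes necdin, a protein of the MAGE family that restrains growth in neurons, was at 2.51, 2.85, 2.42 and 2.72 CPM in control and at 7.27, 7.07, 9.30 and 7.84 CPM in knockdown replicates 1 to 4. The groups were far apart, and the log2 fold change was 1.58 (SE 0.115, edgeR adjusted p = 2.25e-12), or 2.98-fold. Its paternally expressed neighbours MAGEL2, another MAGE gene, and MKRN3, which encodes a ring-finger protein, had at most 1 count in any library.

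SNRPN, which encodes a spliceosomal protein, was at 37.8, 38.3, 37.6 and 37.3 CPM in control and at 31.4, 28.2, 37.0 and 32.3 CPM in knockdown replicates 1 to 4. Knockdown replicate 3 lay just under the lowest control library, and the log2 fold change was -0.23 (SE 0.059, edgeR adjusted p = 0.00231). SNURF, a short reading frame on the same transcripts, was counted as a gene of its own, at 2.88 ± 0.563 CPM without and 3.35 ± 1.21 CPM with the knockdown (SD, n = 4), with overlapping groups (log2 0.22, SE 0.234, edgeR adjusted p = 0.46). Since both share exons, how reads were split between them is uncertain. With the counts of both summed, the log2 fold change was -0.19 (edgeR adjusted p = 0.00155), and knockdown replicate 3 was again the highest of its group, at 39.7 CPM.

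SNHG14, the long paternal host transcript that continues from SNRPN and runs antisense to UBE3A, was at 70.5, 71.1, 71.0 and 72.1 CPM in control and at 62.8, 66.1, 58.8 and 61.5 CPM in knockdown replicates 1 to 4 (log2 -0.19, SE 0.038, edgeR adjusted p = 0.000121). UBE3A, a ubiquitin ligase that is maternally expressed in neurons and biallelic in most other cells, was at 107.4, 107.6, 106.3 and 110.3 CPM in control and at 113, 119, 112 and 121 CPM in knockdown replicates 1 to 4 (log2 0.11, SE 0.034, edgeR adjusted p = 0.00946). So SNHG14 fell and UBE3A rose, and the groups overlapped for neither. The log2 ratio of UBE3A to SNHG14 was 0.60 ± 0.01 in control and 0.90 ± 0.07 in knockdown libraries (SD, n = 4). The libraries are directional, but which strand setting was used in counting is not stated, so reads of these overlapping genes may not be fully separated. The log2 ratio of NDN to SNRPN was -3.85 ± 0.10 in control and -2.04 ± 0.06 in knockdown libraries (SD, n = 4), so these paternally expressed genes of one cluster had changes in opposite directions.

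On chromosome 7 the PEG10-SGCE locus fell. PEG10, a retrotransposon-derived gene that the placenta needs, was at 249, 236, 255 and 227 CPM in control and at 121, 117, 125 and 123 CPM in knockdown replicates 1 to 4. All knockdown libraries stood at about the same level, far under the controls, at log2 -0.99 (SE 0.036, edgeR adjusted p = 4.68e-19), or 1.99-fold lower. SGCE, epsilon-sarcoglycan, whose mutation on the paternal allele gives myoclonus-dystonia and whose start lies head to head with that of PEG10, was at 43.3, 45.9, 46.3 and 49.8 CPM in control and at 38.2, 34.4, 36.2 and 36.9 CPM in knockdown replicates 1 to 4.

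SGCE fell by 0.35 on the log2 scale (SE 0.047, edgeR adjusted p = 4.31e-07), and PEG10 fell further. The log2 ratio of PEG10 to SGCE went from 2.38 ± 0.14 to 1.74 ± 0.05 (SD, n = 4). PPP1R9A, neurabin, an actin-binding protein with tissue-dependent imprinting, was at 26.9, 27.8, 28.3 and 26.7 CPM in control and at 22.3, 25.4, 23.0 and 25.1 CPM in knockdown replicates 1 to 4. It fell by 0.19 on the log2 scale (SE 0.052, edgeR adjusted p = 0.00243), with no overlap. DLX5, a homeobox gene whose imprinting is disputed, had 1 count in all 8 libraries together.

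In the other loci of chromosome 7, MEST rose and GRB10 fell. MEST, a hydrolase-like protein of mesoderm, was at 1.84, 2.10, 1.52 and 1.75 CPM in control and at 5.38, 4.32, 4.69 and 4.18 CPM in knockdown replicates 1 to 4 (log2 1.35, SE 0.142, edgeR adjusted p = 4.24e-09). COPG2, a coat protein subunit of Golgi vesicles whose end overlaps that of MEST on the other strand, stayed between 54.4 and 57.8 CPM in all 8 libraries (log2 -0.01, SE 0.038, edgeR adjusted p = 0.892). The log2 ratio of MEST to COPG2 went from -4.97 ± 0.18 to -3.60 ± 0.19 (SD, n = 4). GRB10, an adaptor that inhibits insulin and growth factor receptors and uses different alleles in brain and other tissues, was at 66.3, 60.4, 64.5 and 60.8 CPM in control and at 49.7, 45.9, 45.5 and 46.4 CPM in knockdown replicates 1 to 4. It fell by 0.43 on the log2 scale (SE 0.042, edgeR adjusted p = 1.14e-09), with no overlap.

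In the H19-CDKN1C region of chromosome 11 only CDKN1C passed the test among the 3 genes tested. CDKN1C, the maternally expressed cyclin-dependent kinase inhibitor p57, which differentiated podocytes are known to express, was at 33.0, 29.9, 31.6 and 32.5 CPM in control and at 38.5, 37.4, 43.8 and 37.9 CPM in knockdown replicates 1 to 4 (log2 0.31, SE 0.051, edgeR adjusted p = 9.27e-06). All knockdown libraries were above all controls, and knockdown replicate 3 stood above the other 3. PHLDA2, a maternally expressed restraint on placental growth, was at 27.4 ± 2.04 and 29.5 ± 2.05 CPM (log2 0.11, SE 0.057, edgeR adjusted p = 0.117). It passed when control replicate 1 (edgeR adjusted p = 0.0446) or knockdown replicate 2 (0.0278) was left out.

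KCNQ1OT1, the paternal noncoding RNA that silences CDKN1C and PHLDA2 on its own chromosome, was at 18.5 ± 1.48 and 17.2 ± 1.51 CPM with overlapping groups (log2 -0.10, SE 0.068, edgeR adjusted p = 0.22). It lies antisense within KCNQ1, which had 0 to 4 counts in each library. H19, the maternally expressed noncoding RNA of the other control region, had 2, 1, 0 and 3 counts in control and 7, 7, 4 and 2 counts in knockdown libraries, below the filter. The ratio of its summed counts was 3.44 with a 95% counting interval of 1.33 to 10.5, its groups overlapped, and without a filter it was not called (edgeR adjusted p = 0.0721). IGF2, the fetal growth factor gene next to H19, had 2 to 7 counts in control and 41 to 72 counts in knockdown libraries (log2 3.59, SE 0.306, edgeR adjusted p = 6.11e-11). It passed the filter only through the knockdown group, so its sign was favoured by the filter.

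The loci of chromosome 20 differed. BLCAP, a conserved small protein imprinted in brain only, was at 78.3, 78.2, 76.0 and 78.2 CPM in control and at 96.5, 92.6, 98.6 and 94.5 CPM in knockdown replicates 1 to 4. It rose by log2 0.30 (SE 0.034, edgeR adjusted p = 2.18e-08), while NNAT, the paternally expressed neuronatin gene inside its intron, had 1 count in all libraries together. GNAS, which encodes the stimulatory G-protein subunit and several isoforms with different imprinting, was at 816 ± 26.0 CPM in control and at 858 ± 27.6 CPM after the knockdown (SD, n = 4), with overlapping groups.

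The test of GNAS stood near the threshold (log2 0.07, SE 0.032, edgeR adjusted p = 0.0664), and it passed under several alternatives, among them DESeq2 (adjusted p = 0.0316), the stricter filter on low counts (edgeR, 0.0399) and the omission of control replicate 1 (0.0165), knockdown replicate 2 (0.0373) or knockdown replicate 4 (0.0493). With the replicate number as a block it passed too (edgeR adjusted p = 0.0258). Counts per gene do not separate its isoforms. GNAS-AS1, its antisense RNA, was at 1.03 ± 0.073 and 0.953 ± 0.189 CPM (log2 -0.12, SE 0.229, edgeR adjusted p = 0.701), and L3MBTL1, a chromatin reader, at 7.82 ± 0.277 and 8.40 ± 1.22 CPM (log2 0.10, SE 0.094, edgeR adjusted p = 0.39).

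Each of the remaining loci is represented by 1 of the 33 genes. ZDBF2, a zinc-finger gene of chromosome 2, was at 28.0, 29.7, 28.9 and 31.4 CPM in control and at 24.2, 27.5, 23.3 and 25.7 CPM in knockdown replicates 1 to 4. It fell by 0.23 on the log2 scale (SE 0.054, edgeR adjusted p = 0.000917), with the highest knockdown library just under the lowest control. PLAGL1, a zinc-finger factor of chromosome 6 that regulates other imprinted genes and whose excess gives transient neonatal diabetes, was at 59.9, 58.4, 56.6 and 52.9 CPM in control and at 55.6, 52.7, 48.1 and 48.5 CPM in knockdown replicates 1 to 4. It fell by 0.15 on the log2 scale (SE 0.047, edgeR adjusted p = 0.00835), and its groups overlapped, since knockdown replicate 1 was above control replicate 4. Neither NAP1L5, a nucleosome assembly protein-like gene of chromosome 4 (log2 0.21, SE 0.117, edgeR adjusted p = 0.146), nor DIRAS3, a Ras-like growth suppressor of chromosome 1 (log2 -0.11, SE 0.177, edgeR adjusted p = 0.648), passed. PEG3, a zinc-finger gene of chromosome 19, had 0 to 2 counts in each library, while its imprinted neighbour USP29, a ubiquitin peptidase gene, had 3, 2, 1 and 0 counts in control and 10, 8, 18 and 18 counts in knockdown libraries. USP29 was below the filter, and without one it was called higher (edgeR adjusted p = 1.28e-07).

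The 9 untested genes were thus DLK1, RTL1, MEG9, H19, PEG3, DLX5, MAGEL2, MKRN3 and NNAT. None of them had more than 7 counts in any library, and DLK1 and MKRN3 had 0 in each. These 0 counts limit only what these libraries could detect.

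Levels per length spanned a wide range. Per kilobase of annotated exon, GNAS was highest in control libraries at 61.3 ± 1.95 CPM (SD, n = 4), followed by PEG10 at 36.1 ± 1.85 and PHLDA2 at 28.7 ± 2.14. COPG2 (13.6 ± 0.320) and CDKN1C (12.8 ± 0.542) followed, with ranges of 1 SD that meet. At the lower end came L3MBTL1 at 0.503 ± 0.018, MEST at 0.376 ± 0.050, GNAS-AS1 at 0.282 ± 0.020, KCNQ1OT1 at 0.202 ± 0.016, MEG3 at 0.168 ± 0.035 and MEG8 at 0.013 ± 0.006. MEST, MEG3 and MEG8 rose, and L3MBTL1, GNAS-AS1 and KCNQ1OT1 did not pass the test. NDN, which rose too, was at 1.36 ± 0.101. In knockdown libraries PEG10 stood at 18.2 CPM per kilobase, under PHLDA2 at 30.9. The exon lengths are from GENCODE release 29 and join all isoforms, which lowers the level per length of genes with many isoforms, such as MEG3 and SNHG14.

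**Figure D3:**
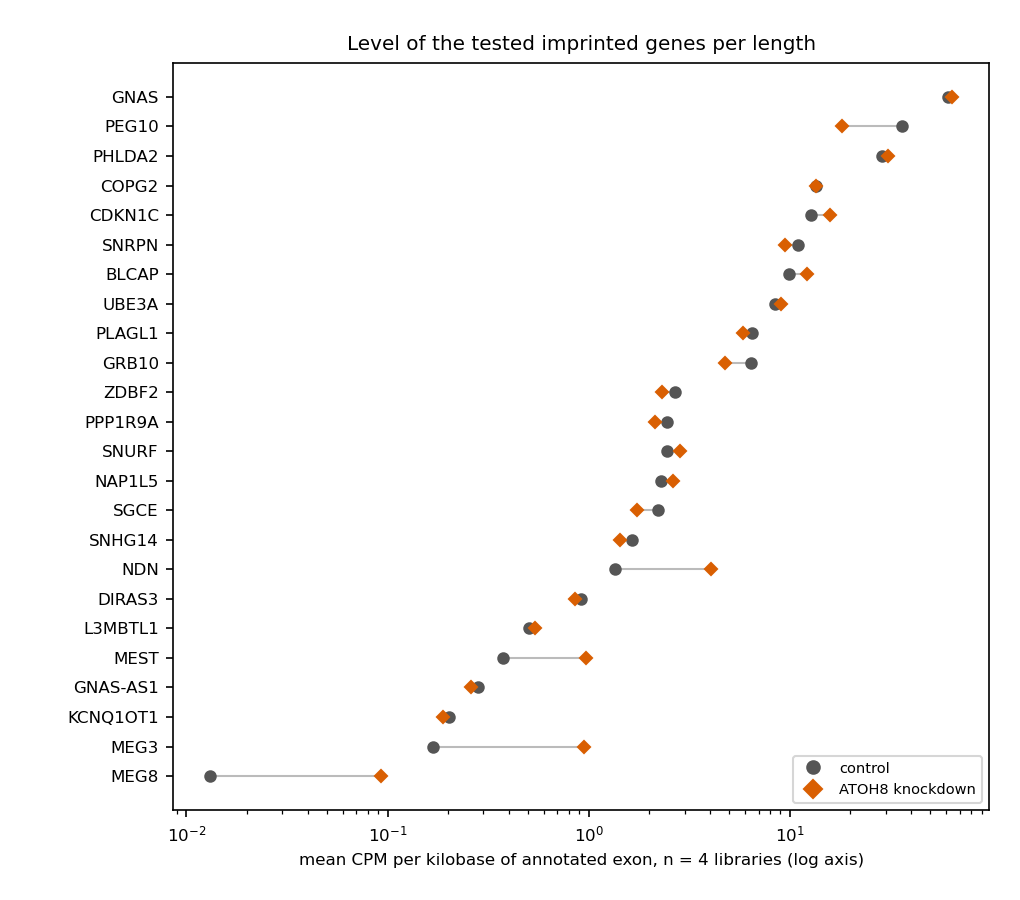
Mean CPM per kilobase of annotated exon for the 24 tested imprinted genes, in control and knockdown libraries on a log axis, in the order of the control level. MEG8, MEG3, MEST and NDN, at 0.013, 0.168, 0.376 and 1.36 in control, have the longest shifts to the right, and PEG10 shifts left from 36.1 to 18.2.

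Listed genes near these loci were read from the same fit. They were taken as outside the imprinted domains, but the limits of the domains were not checked. Of 50 tested neighbours 17 rose, 19 fell and 14 did not pass, which is 72% called beside 51.1% of all genes, with a median log2 fold change of -0.01. The median size of their change was 0.15, smaller than the 0.19 of all tested genes. At the DLK1-DIO3 locus the 5 tested neighbours had log2 fold changes from -0.01 to 0.38, far under those of MEG3 and MEG8, and 3 of them rose: CDC42BPB, a kinase of actomyosin (0.36), WDR25 (0.38) and WARS1, tryptophanyl-tRNA synthetase (0.15). Around SNRPN-UBE3A the 5 neighbours ran from -0.12 to 0.21, with HERC2, a ubiquitin ligase that acts with UBE3A, at 0.21. Around MEST the 3 neighbours ran from -0.22 to -0.05. CPA4 and KLF14, also near MEST, are reported as imprinted and were therefore counted in the list below and not here. CPA4 rose by log2 1.40 (edgeR adjusted p = 9.44e-22), and KLF14 was below the filter.

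At ZDBF2, PLAGL1, GNAS, DIRAS3 and L3MBTL1 a neighbour had a larger change than the tested imprinted genes of the locus. Near GNAS, ATP5F1E fell by 0.22 on the log2 scale (edgeR adjusted p = 7.41e-06). WLS, near DIRAS3, fell by 0.20 (edgeR adjusted p = 3.95e-05). Near L3MBTL1, MYBL2 rose by 0.19 (edgeR adjusted p = 0.00285, overlapping groups). The tested imprinted genes of these last loci, GNAS, GNAS-AS1, DIRAS3 and L3MBTL1, did not pass. ADAM23, an adhesion protein near ZDBF2, rose from 0.587 ± 0.083 to 2.46 ± 0.216 CPM (SD, n = 4; log2 2.06, SE 0.208, edgeR adjusted p = 1.94e-09) while ZDBF2 fell, and NDUFS1, a respiratory chain subunit gene at the same locus, fell by 0.32. STX11, a syntaxin near PLAGL1, fell by 0.98 on the log2 scale (SE 0.092, edgeR adjusted p = 4.38e-10) and PHACTR2, also near PLAGL1, by 0.37. At 2 further loci the called neighbours named here changed less than CDKN1C and PEG10. In the H19-CDKN1C region CTSD, which encodes cathepsin D, rose by 0.18. At the PEG10-SGCE locus COL1A2, a low-level collagen gene, rose by 0.82 (SE 0.254, edgeR adjusted p = 0.00791, overlapping groups), against the direction of PEG10 and SGCE, while CASD1, a sialic acid acetyltransferase beside SGCE, fell by 0.15 and PON2, a paraoxonase, by 0.33. COL1A2 thus had a larger change than SGCE (log2 -0.35) and PPP1R9A (log2 -0.19), and PON2 a larger one than PPP1R9A.

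**Figure D4:**
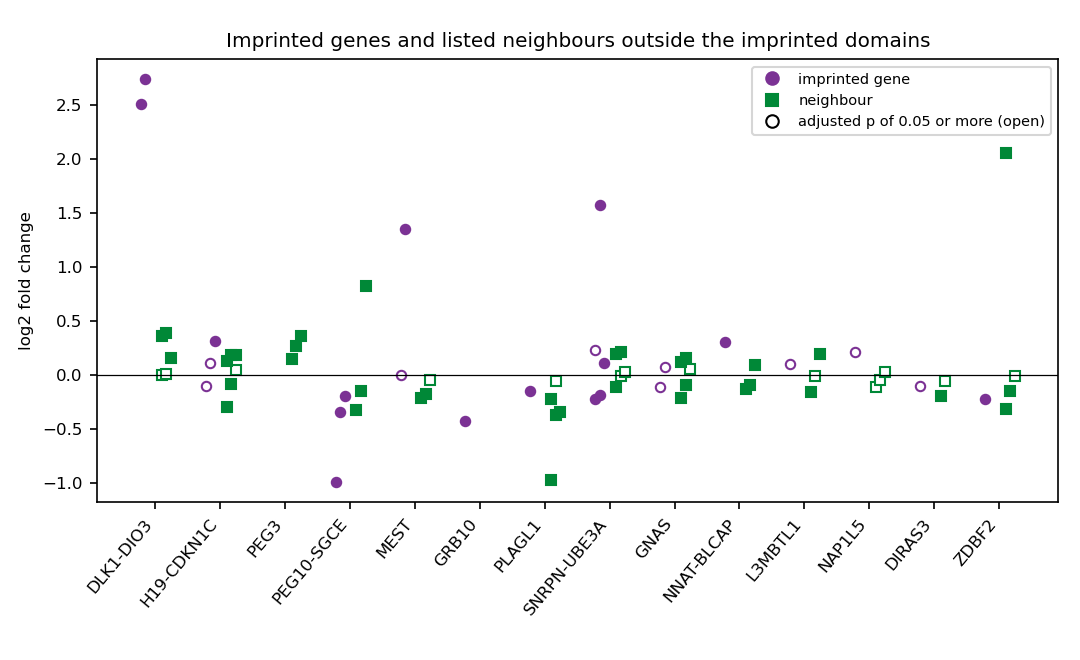
The log2 fold change of the tested imprinted genes (circles) and of listed neighbours taken as outside the imprinted domains (squares) at each locus, open where the adjusted p was 0.05 or more. MEG3 and MEG8 at 2.51 and 2.73 stand above neighbours that reach 0.38 at most, whereas at ZDBF2 the neighbour ADAM23 at 2.06 stands above the imprinted gene at -0.23.

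A list of 51 further genes reported as imprinted was read in the same way. Of the 28 tested, 9 rose, 8 fell and 11 did not pass, 60.7% called beside 51.1% of all genes, with a median log2 fold change of 0.08. NLRP2, a maternal-effect gene of the NOD-like receptor family, had 0, 4, 0 and 0 counts in control and 93, 98, 99 and 90 counts in knockdown libraries (edgeR adjusted p = 1.68e-13). NLRP2 and IGF2, also in this list, passed the filter only through the knockdown group, so their sign was favoured by the filter. The 9 rises therefore describe the 28 tested genes and not the whole list. CPA4, a carboxypeptidase gene near MEST, rose from 58.0 ± 3.75 to 152 ± 1.26 CPM (SD, n = 4; log2 1.40, SE 0.038, edgeR adjusted p = 9.44e-22), and NTM, a neural adhesion protein, by 0.43. SLC22A3, an organic cation transporter gene of the IGF2R cluster, fell from 13.6 ± 0.909 to 4.76 ± 0.222 CPM (SD, n = 4; log2 -1.51, SE 0.084, edgeR adjusted p = 4.99e-15). NDUFA4, a respiratory chain subunit (log2 -0.26), LPAR6, a lysophosphatidic acid receptor (log2 -0.80), and FAM50B (log2 -0.44) fell too. Of the genes below the filter, USP29 and KLF14, a transcription factor gene near MEST (14 counts in control and 46 in knockdown libraries in all), were called higher without one (KLF14: edgeR adjusted p = 0.00177). IGF2R, the receptor that clears IGF2, was at 672 ± 28.0 and 661 ± 22.7 CPM and did not pass (log2 -0.02, SE 0.034, edgeR adjusted p = 0.583).

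Among the tested genes known to set or keep imprints the changes were small. Of 24 tested, 6 rose, 8 fell and 10 did not pass, 58.3% called beside 51.1% of all genes, and no change reached 2-fold. ZFP57, the factor of the hexamer shown above, was too rare for the test, with 2, 3, 0 and 0 counts in control and 8, 4, 7 and 5 counts in knockdown libraries, and without a filter it was called higher (log2 2.21, edgeR adjusted p = 0.0109). The rises with the lowest adjusted p-values were in TET3, which oxidises methylcytosine (log2 0.46, SE 0.049, edgeR adjusted p = 6.65e-09), ZNF445, a zinc-finger protein that binds imprinted control regions (log2 0.23, SE 0.044), YY1, a zinc-finger factor with sites at PEG3 and GNAS (log2 0.16), and EHMT1, a histone methyltransferase (log2 0.14). The cohesin subunit RAD21 fell by 0.25 on the log2 scale (SE 0.032, edgeR adjusted p = 1.65e-07), and so did the polycomb genes EED (log2 -0.35), SUZ12 (log2 -0.20) and EZH2 (log2 -0.24). DNMT1, the maintenance DNA methyltransferase, was at 223 ± 5.79 and 230 ± 7.98 CPM (log2 0.04, SE 0.032, edgeR adjusted p = 0.274), and the insulator protein CTCF at 47.7 ± 1.54 and 47.9 ± 1.04 CPM (log2 0.01, SE 0.040, edgeR adjusted p = 0.908).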

How the data were processed

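Polyadenylated RNA of 8 AB8/13 libraries was sequenced from directional libraries, per the labels' protocols. The authors deposited whole-number counts per gene, 1 column per library, taken here as raw read counts. STAR, featureCounts, FastQC, DESeq2 and the build hg19 appear in the submitters' processing notes. Their versions, the annotation and the strand setting are not stated there. Of 60609 rows, 1 with a missing cell and 44 pseudoautosomal copies on the Y chromosome with 0 counts were left out. For 60295 genes the symbol is from a gene-name table and for 250 from GENCODE release 29. That release describes GRCh38, so no coordinates of measured genes are printed.

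Groups were compared with edgeR 4.0.16 and limma 3.58.1 in R 4.3.3 (filterByExpr, TMM scaling, robust quasi-likelihood F test), with p-values adjusted over the 16884 genes tested by the Benjamini-Hochberg method, at a threshold of 0.05. CPM were computed on the TMM-scaled library size, standard errors were derived from F, and SD is over 4 libraries. Ratios of gene pairs are log2 ratios of CPM per library. Counting intervals cover counting error only. The fit was tested on simulated counts of 16667 genes for this comparison: 86 of 87 genes at 1 CPM or more changed 2-fold were recovered, 57 of 90 changed 1.3-fold, and 5.19% of the 154 calls were unchanged genes. Only 100 genes were changed at each size, far fewer than were called in the data. The simulated spread followed the trend with level fitted to these libraries, and not the spread of each gene. These shares therefore do not give the error rate of the calls reported here. The 12 pairs of libraries within groups had a chi-square per gene from 1.91 to 4.20, and no pair looked like one library deposited again. Other settings tried were DESeq2 1.42.0 size factors or its Wald test, other filters on low counts, the replicate number as a block, and the omission of each library in turn.

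The imprinted genes, lists and tests were chosen with earlier results of these data known. All 33 genes are accounted for, and of the lists of other imprinted, imprint-keeping and neighbouring genes up to 4 rising and 4 falling genes with the smallest adjusted p were named. COL1A2, CASD1, WDR25, WARS1, WLS, ATP5F1E, MYBL2, IGF2R, DNMT1, CTCF, KCNQ1, USP29, KLF14, ZFP57 and the single marker genes were named after their values were seen.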

Additional observations from a re-analysis of the deposited data

Results flagged for a closer look

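Among 48 groups of 4 libraries, 24 genes in each of the 2 conditions, 2 held a library far from the other 3 by Dixon's ratio, where chance gives about 1 in 20. CDKN1C was at 43.8 CPM in knockdown replicate 3 and at 37.4 to 38.5 CPM in the other knockdown libraries. BLCAP was at 76.0 CPM in control replicate 3 and at 78.2 to 78.3 CPM in the other control libraries.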

How the results depend on the processing

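The 15 calls of imprinted genes kept their direction and stayed past the threshold under each alternative in which the gene was tested (MEG8 was not tested with 1 CPM required in 4 libraries). The number called was 15 to 17 when 1 library was left out, 15 with DESeq2 size factors, 16 with the DESeq2 Wald test, 16 without a filter, and 15 with SNRPN and SNURF summed, an alternative chosen after seeing the data. The genes that entered were GNAS, PHLDA2 and, without a filter, MEG9. Of maternally expressed genes 3 were called, 2 under the filter of 1 CPM, and 4 without a filter, without control replicate 1 and without knockdown replicate 2. The log2 fold change of PEG10 ran from -1.02 to -0.97, across the 2-fold line. With each library omitted in turn ATOH8 had log2 fold changes between -1.34 and -1.20. No scaling moved the median of the same genes by more than 0.01.

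The labels give no more than a shared number to libraries of the 2 groups. The deviations of same-numbered libraries correlated by 0.234, 0.23, 0.095 and 0.127, and 3 of 4 knockdown libraries correlated best with their own number, a hint of a shared factor from the data and not from the design. Since 1 of the 4 was under 0.1, the numbers were not taken as pairs. With the replicate block 8802 genes were called, against 8625 without it, and 16 imprinted genes, with GNAS added. Depth limits the 9 untested genes and MEG8, whose control libraries held 2 to 6 counts.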
